A study of Rattus norvegicus with 10 samples.

Results

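The 10 genes described here encode the sensors of foreign or misplaced RNA inside a cell, their adaptors and their nearest effectors: Ifih1, Ddx58, Dhx58, Mavs, Eif2ak2, Tlr3, Zc3hav1, Trim25, Adar and Irf3. Ifih1 was chosen on its change between the groups of these same libraries, and the other 9 were added as its family and pathway by name. All 10 were found by symbol among 23918 genes and all 10 passed the filter on low values, which left 12941 genes. β-cells, which make insulin in the pancreatic islet, were sorted by FACS on their autofluorescence from islets of adult Sprague-Dawley rats that carried no stated genetic change. The siScrt1 group received a pool of 4 siRNAs against Scrt1, which encodes a zinc finger transcription factor of the Snail superfamily, and the siCtrl group a negative control siRNA, each by lipid transfection. RNA was taken 48 h later and sequenced from 5 libraries per group, named siCtrl replicates 1 to 5 and siScrt1 replicates A to E. Both groups therefore held short double-stranded RNA and transfection lipid, and no untransfected library was compared here. A knockdown leaves part of the target RNA, and the labels do not say whether replicates came from separate animals, so p-values measure the spread between these samples.

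Double-stranded or otherwise unusual RNA in the cytosol is recognised by the RIG-I-like receptors, 3 related helicases encoded by Ddx58 (RIG-I), Ifih1 (MDA5) and Dhx58 (LGP2). RIG-I prefers short RNA with 5′ phosphates, MDA5 assembles along long double-stranded RNA, and LGP2 lacks the signalling domains and modulates the others. RIG-I and MDA5 pass the signal to MAVS on the mitochondrial surface, from which kinases activate IRF3 and NF-κB and thereby type I interferon genes. Ifih1 is also known in islet biology because variants of the human gene are associated with type 1 diabetes.

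The libraries held 11901339 to 17444031 reads recovered from the deposited values. Insulin transcripts (Ins1 and Ins2) took 8.88% to 14.97% of them. Immune cells also use these sensors, and the summed level of 9 measured immune cell markers was 5.34 to 6.80 CPM (reads relative to the library total) in siCtrl and 4.89 to 7.74 CPM in siScrt1, with Ptprc, the pan-leukocyte marker CD45, at 0.309 to 1.05 and 0.345 to 1.09 CPM and Cd3e, a T-cell marker, at 0 reads in all libraries. The highest of these immune cell markers was C1qa, at 2.31 to 4.32 CPM in siCtrl and 1.76 to 3.67 CPM in siScrt1. Endothelial markers (4 measured) summed to 0.394 to 1.17 and 0.504 to 1.31 CPM, and acinar markers (7) to 0.299 to 0.729 and 0.115 to 0.504 CPM. Markers of the other islet cells were higher, at 213 to 582 and 210 to 463 CPM for α-cells (5 genes) and 18.5 to 83.0 and 22.1 to 89.6 CPM for δ- and PP-cells (4 genes). Duct markers (5) summed to 186 to 266 and 200 to 265 CPM and mesenchymal markers (7) to 3.83 to 18.7 and 5.01 to 32.1 CPM, and the part of these cells in the results was not tested. The duct sum was mostly Krt7 (means of 215 and 227 CPM), with Krt19 at 2.25 and 2.22 CPM and Sox9, Muc1 and Spp1 lower. The α-cell sum was mostly Gcg (386 and 340 CPM). In bulk RNA, fewer cells of a type and less RNA per cell cannot be told apart. Scrt1, the targeted gene, was at 11.7 to 18.2 CPM in siCtrl and 1.57 to 5.55 CPM in siScrt1 (two-sided exact permutation p = 0.00794, which is the lowest value 5 against 5 libraries can give; log2 fold change -2.06 at an adjusted limma p of 0.00618). The libraries numbered 1 in the deposited table, siCtrl replicate 1 and siScrt1 replicate A, stood, in most comparisons, farther from the other libraries of their group than those did from each other (chi-square per gene 39.9 to 114 against 18.5 to 46.1). Without both of them the log2 fold changes of Ifih1 and Mavs were 1.19 and 0.29, in place of 1.09 and 0.27.

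Of the 3 RIG-I-like receptors, Ifih1 was about 2.13-fold higher in siScrt1 than in siCtrl, while Ddx58 and Dhx58 had fold changes near 1. Scaled counts (the estimated counts that the authors scaled between libraries) of Ifih1 were 115, 143, 84.7, 93.1 and 117 in siCtrl replicates 1 to 5 and 187, 202, 239, 263 and 282 in siScrt1 replicates A to E. The highest siCtrl library lay below the lowest siScrt1 library. The means were 110 ± 22.8 and 234 ± 40.0 (SD, n = 5), a log2 fold change of 1.09 with a standard error of 0.156 on log2(scaled count + 0.5). Since this change chose the gene, it is given as a description without a test. Behind it were between 92 and 139 recovered reads in each siCtrl library and between 148 and 297 in each siScrt1 library. By CPM the closest libraries were siCtrl replicate 2 and siScrt1 replicate A. In the former Ifih1 was at 10.7 CPM (exact 95% Poisson interval 9.01 to 12.6, 139 reads). In the latter it was at 12.4 CPM (10.5 to 14.6, 148 reads). These intervals overlapped, and they cover counting error alone. In scaled counts the same libraries stood at 143 and 187. Between libraries that carried the same number in the deposited table, the log2 difference of Ifih1 ranged from 0.50 to 1.49 and was positive in 5 of 5.

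Ddx58 showed no such separation. Its scaled counts were 140, 182, 236, 209 and 233 in siCtrl and 172, 205, 197, 209 and 206 in siScrt1. The siScrt1 libraries lay inside the siCtrl range, and the lowest value of each group was that of the library numbered 1. The log2 fold change was 0.01 (SE 0.136, 95% interval -0.29 to 0.30; adjusted p = 0.992, limma), so a rise above 1.23-fold lay outside the interval, while the direction changed with the library left out. For Dhx58 the scaled counts were 104, 89.4, 101, 72.6 and 84.1 in siCtrl and 97.2, 85.8, 82.4, 85.3 and 79.6 in siScrt1. The groups overlapped, with a log2 fold change of -0.06 (SE 0.126, 95% interval -0.33 to 0.21, adjusted p = 0.901 in limma). Compared by TPM, which takes transcript length into account, Ifih1 stood at 0.251 ± 0.0894 of Ddx58 in siCtrl and 0.510 ± 0.0646 in siScrt1 (SD, n = 5), and at 0.817 ± 0.190 and 1.81 ± 0.415 of Dhx58.

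**Figure D1:**
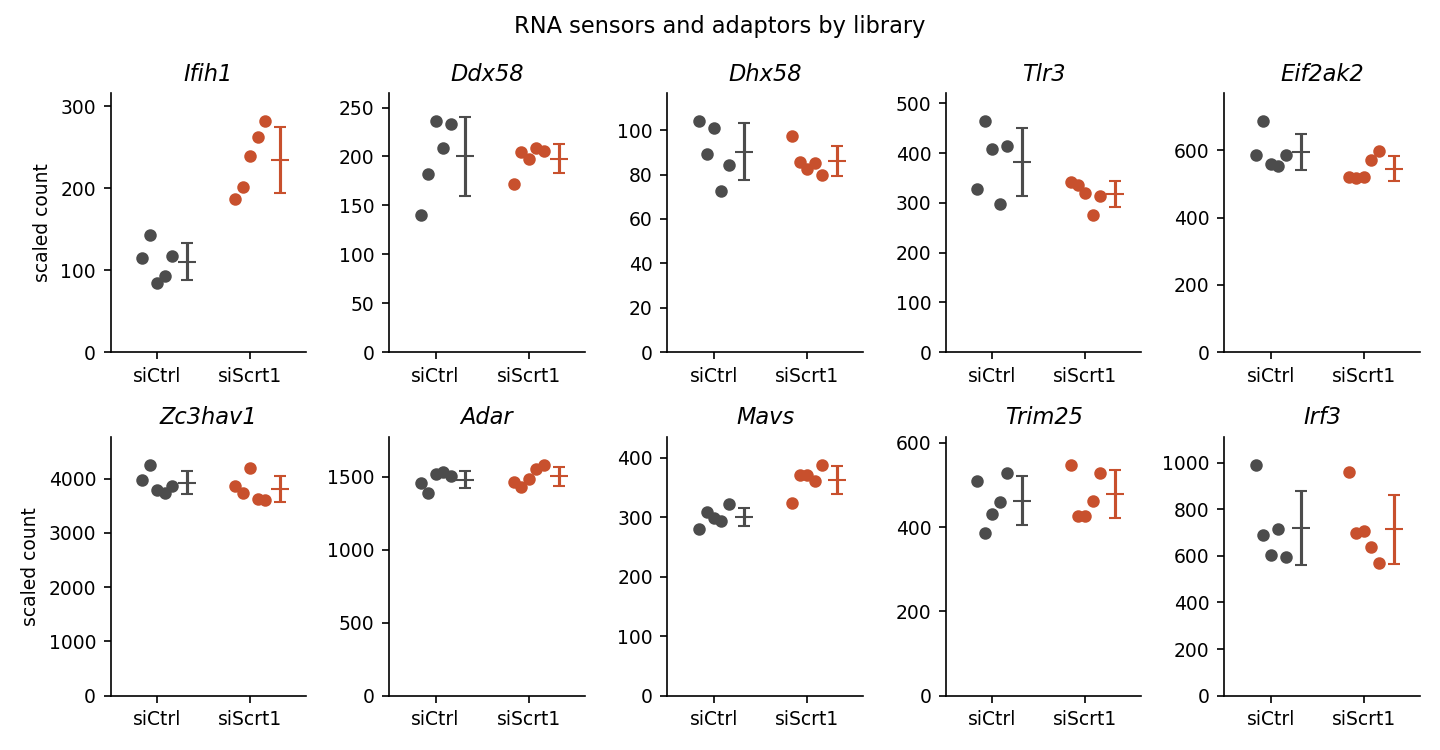
Scaled counts (y axis, linear and from 0) of the 10 genes in each of the 5 siCtrl libraries (grey, replicates 1 to 5 from left to right) and the 5 siScrt1 libraries (orange, A to E), with the mean and SD beside the points. The groups are apart for Ifih1 (84.7 to 143 against 187 to 282) and Mavs (280 to 322 against 324 to 388) and overlap for the other 8 genes, among them Irf3 with a high library in each group (991 and 960).

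Mavs, the adaptor that RIG-I and MDA5 share, was the 1 other gene of the 10 whose groups did not overlap in scaled counts. It was at 280, 308, 298, 293 and 322 in siCtrl replicates 1 to 5 and at 324, 370, 370, 361 and 388 in siScrt1 replicates A to E. The gap was narrow, and in CPM the groups overlapped, because siScrt1 replicate A (21.6) lay below siCtrl replicates 2 (23.1) and 5 (23.2). In the gene fit Mavs had a log2 fold change of 0.27 (SE 0.0734, 95% interval 0.11 to 0.43), or 1.21-fold, which did not pass after adjustment over all genes (limma, unadjusted p = 0.00281, adjusted p = 0.127). With the library number as a block it did not pass either (limma, adjusted p = 0.0796). All 5 pairs of libraries with the same number were higher in siScrt1, by 0.21 to 0.31 on the log2 scale. Among all genes tested, 3.51% had groups that did not overlap, and 1.48% did so with siScrt1 higher.

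Counted over the 10 genes, Ifih1 alone passed an adjusted p of 0.05, beside 1.05% of all genes tested in either direction (0.371% raised, 0.680% lowered). Because the rule used that contrast, nothing is read from the count, which is 0 among the other 9 genes. Before adjustment, Mavs and Tlr3 reached a p of 0.05 in the limma fit, as did 11.1% of all genes. Of the 10 genes, 5 had a positive and 5 a negative log2 fold change, with a median of -0.000 beside 0.00 over all genes tested. A change of the size seen for Ifih1 was outside the interval of every other member, the highest upper limits being 1.35-fold for Mavs, 1.25-fold for Irf3 and 1.23-fold for Ddx58. These limits are from the fit without the library number as a block.

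**Figure D2:**
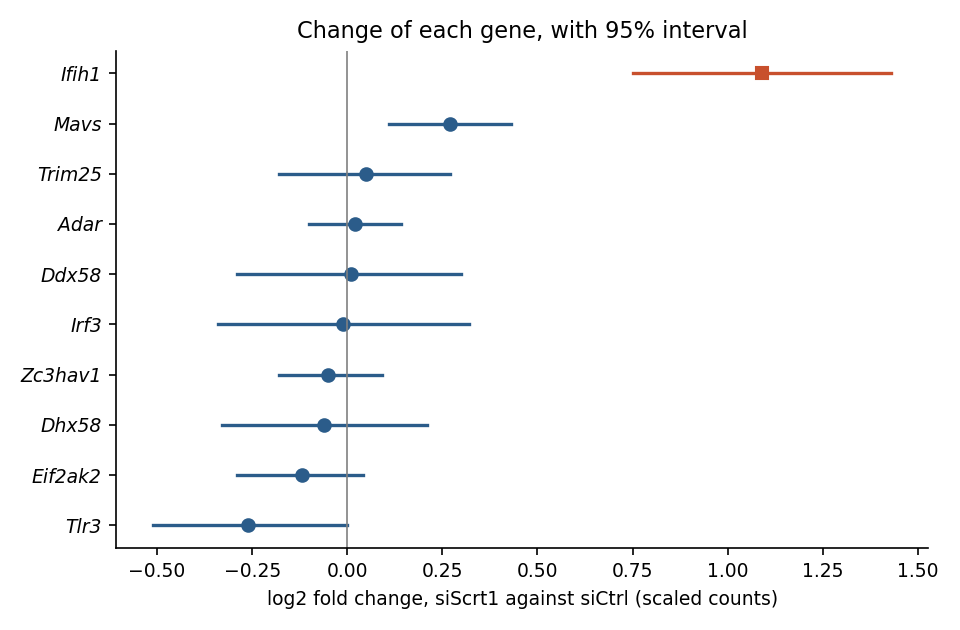
Log2 fold change of the 10 genes in siScrt1 against siCtrl (x axis, scaled counts) with the 95% interval of the limma fit as bars, not adjusted for the number of genes. Ifih1 (orange square, the gene chosen on this contrast) stands at 1.09, Mavs at 0.27 and Tlr3 at -0.26, and the intervals of the other 7 genes include 0.

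Upstream and downstream of MAVS, the ubiquitin ligase gene Trim25, whose product ubiquitinates RIG-I, and Irf3, the transcription factor that induces interferon genes, had fold changes near 1. Trim25 had scaled counts of 510, 385, 430, 460 and 529 in siCtrl and 548, 427, 427, 463 and 528 in siScrt1, with overlapping groups. Its log2 fold change was 0.05 (SE 0.104, 95% interval -0.18 to 0.27, adjusted p = 0.901 in limma). Irf3 varied more within each group, at 991, 691, 603, 716 and 597 in siCtrl and 960, 700, 708, 636 and 568 in siScrt1. The highest library of each group was the one numbered 1, and the log2 fold change was -0.01 (SE 0.153, 95% interval -0.34 to 0.32, adjusted p = 0.993 in limma). With the library number as a block the standard error of Irf3 was 0.0697 and the interval -0.16 to 0.15, still without a call.

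Tlr3 encodes the Toll-like receptor that senses double-stranded RNA in endosomes. Its scaled counts were 327, 464, 409, 298 and 415 in siCtrl and 341, 336, 320, 276 and 313 in siScrt1. The groups overlapped, with siScrt1 replicate D below all siCtrl libraries and the other siScrt1 libraries within their range, and 4 of 5 same-numbered pairs were lower in siScrt1. The log2 fold change of -0.26 (SE 0.118) did not pass after adjustment (limma, unadjusted p = 0.05, adjusted p = 0.451; 0.199 with the library number as a block).

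The 3 effectors that bind double-stranded or foreign RNA had fold changes near 1. Eif2ak2, which encodes PKR, the kinase that halts translation on double-stranded RNA, was at 586, 686, 559, 553 and 586 in siCtrl and at 520, 518, 520, 572 and 597 in siScrt1. The groups overlapped, and siCtrl replicate 2 stood above all others. The log2 fold change was -0.12 (SE 0.0761, 95% interval -0.29 to 0.04, adjusted p = 0.597 in limma). Zc3hav1, which encodes the zinc finger antiviral protein ZAP that binds CpG-rich RNA, was the most abundant of the 10, at 3981, 4255, 3796, 3725 and 3864 in siCtrl and 3854, 3742, 4200, 3625 and 3603 in siScrt1. Its log2 fold change was -0.05 (SE 0.0626, 95% interval -0.18 to 0.09, adjusted p = 0.839 in limma). Adar encodes the deaminase that edits adenosines in double-stranded RNA and so keeps a cell's own RNA from activating MDA5. It was at 1454, 1388, 1518, 1531 and 1502 in siCtrl and 1465, 1427, 1480, 1554 and 1581 in siScrt1, a log2 fold change of 0.02 (SE 0.0549, 95% interval -0.10 to 0.14, adjusted p = 0.914 in limma). Its groups overlapped, and among the 10 genes its interval was the narrowest.

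Ordered by TPM in siCtrl, Zc3hav1 led at 49.8 ± 2.67 (SD, n = 5), followed by Irf3 at 35.9 ± 8.12, Adar at 26.9 ± 1.05 and Trim25 at 12.8 ± 1.65. Eif2ak2 (10.5 ± 1.13), Mavs (8.17 ± 0.156), Ddx58 (7.76 ± 1.53) and Tlr3 (7.09 ± 1.25) came next, and Dhx58 (2.30 ± 0.326) and Ifih1 (1.85 ± 0.383) were the lowest. Neighbours whose siCtrl ranges overlapped were Zc3hav1 and Irf3, Trim25 and Eif2ak2, Mavs and Ddx58, Ddx58 and Tlr3, and Dhx58 and Ifih1, while the other neighbours were apart. In siCtrl, Ifih1 thus had a level above 17.6% of the genes tested and Zc3hav1 above 88.5%. In siScrt1 Ifih1 reached 3.94 ± 0.672 TPM (range 3.15 to 4.74) and was above Dhx58 (2.20 ± 0.173, range 2.04 to 2.49) in every library, but below the 5.88 ± 0.479 of Tlr3. These levels rest on 1 annotated transcript for 7 of the 10 genes, 3897 bases long for Ifih1 and 1794 bases for Ddx58, and TPM would move with another transcript model.

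**Figure D3:**
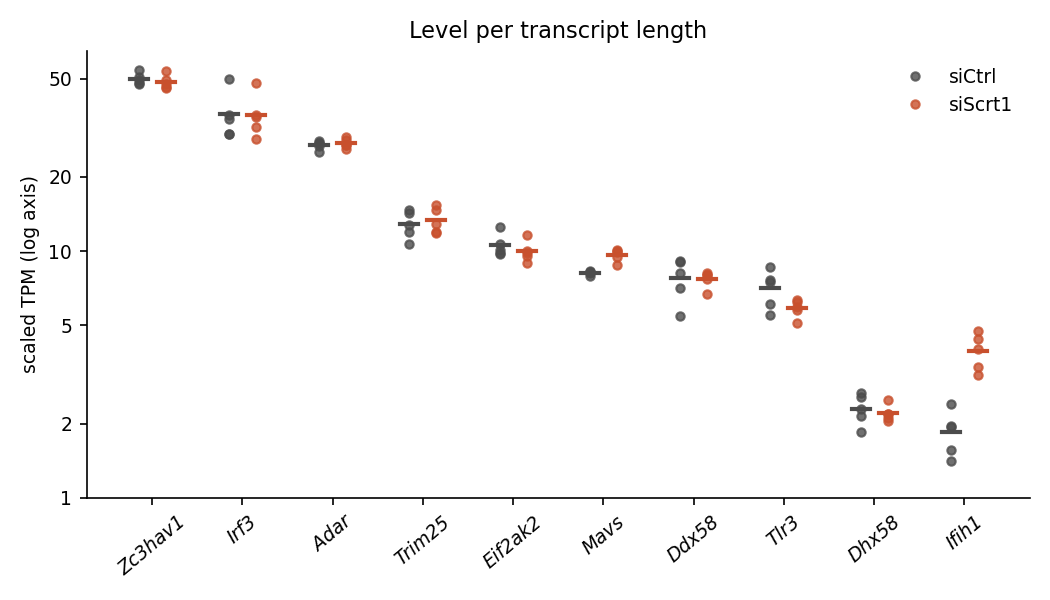
Scaled TPM of the 10 genes on a log axis, ordered by the siCtrl mean, with 1 point per library and a bar at the mean of the 5 siCtrl (grey) and 5 siScrt1 (orange) libraries. The levels span from 49.8 TPM for Zc3hav1 to 1.85 TPM for Ifih1 in siCtrl, and Ifih1 passes Dhx58 in siScrt1.

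Mavs, Tlr3 and Eif2ak2 had 2 annotated transcripts each, between which the quantification divides shared reads. The Mavs transcript of 2941 bases was at 159, 245, 194, 187 and 255 scaled counts in siCtrl and 229, 261, 268, 274 and 303 in siScrt1, for which limma gave a log2 fold change of 0.37 (SE 0.135) and an adjusted p of 0.408 over 17434 transcripts. The transcript of 1852 bases was at 121, 63.3, 104, 106 and 67.9 in siCtrl and 95.6, 109, 102, 86.6 and 85.0 in siScrt1 (log2 fold change 0.09, SE 0.191, adjusted p = 0.914 in limma). In siCtrl the shorter Mavs transcript was low in the libraries where the longer was high, and their sum varied less than either. The longer transcript took 57.6% ± 11.5 of Mavs TPM in siCtrl and 62.6% ± 4.14 in siScrt1 (SD, n = 5), a difference that did not pass (exact two-sided permutation test, p = 0.381, adjusted p = 0.397 over the 3 genes). For Tlr3 the major transcript took 73.2% ± 1.98 and 71.8% ± 2.23 (exact permutation test, p = 0.357, adjusted p = 0.397), and for Eif2ak2 94.3% ± 4.16 and 90.8% ± 8.23 (p = 0.397 by the same permutation test, adjusted p = 0.397). Both Tlr3 transcripts had negative log2 fold changes, -0.29 (SE 0.124) and -0.19 (SE 0.155), neither of which passed. Of the 13 transcripts of the 10 genes, 1 was called, against 0.419% of all transcripts. That was the single transcript of Ifih1, which repeats the contrast that chose the gene, so nothing is read from it; it was not called with the library number as a block or without siCtrl replicate 4 or 5 or siScrt1 replicate C, D or E.

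**Figure D4:**
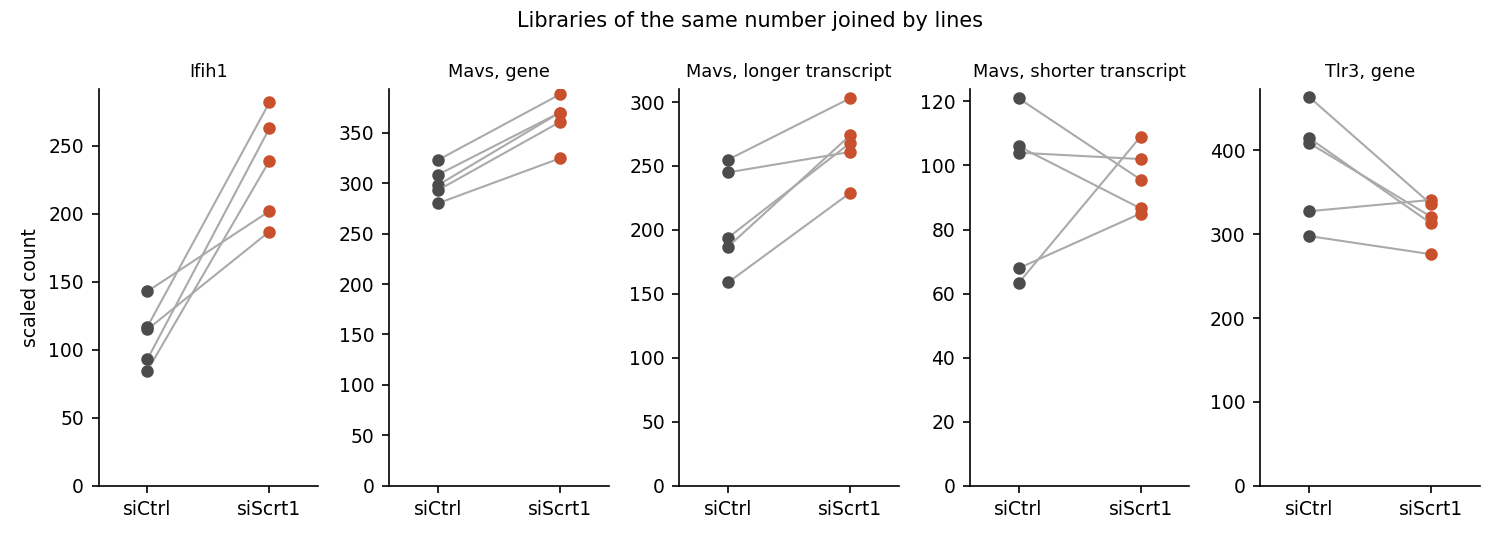
Scaled counts (y axes, linear and from 0) of Ifih1, of Mavs as a gene and for its transcripts of 2941 and 1852 bases, and of Tlr3, with each siCtrl library (grey) joined to the siScrt1 library (orange) of the same number. All 5 lines go up for Ifih1, for Mavs and for its longer transcript, lines go both ways for the shorter Mavs transcript, and 4 of 5 go down for Tlr3.

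Promoters of 7 of the 10 genes were taken from RefSeq (build GRCr8, 250 bases before to 50 after the start of the gene); those of Ddx58, Dhx58 and Adar were not used here. They were searched on both strands for AANNGAAA, a core bound by interferon regulatory factors, for GAAANNGAA, the tandem form found in interferon-stimulated response elements, and for the E-box CAGGTG, which Snail and Scratch proteins recognise, with its longer form CAACAGGTG. The sequences of Ifih1 (chr3:67683919-67684218, minus strand) and Eif2ak2 (chr6:21940904-21941203, plus strand) are shown because they hold the tandem form, and that of Mavs (chr3:138904562-138904861, plus strand) because Mavs was the other gene without overlap. Each is written 5′ to 3′ along the gene, with matches in capitals.
Ifih1: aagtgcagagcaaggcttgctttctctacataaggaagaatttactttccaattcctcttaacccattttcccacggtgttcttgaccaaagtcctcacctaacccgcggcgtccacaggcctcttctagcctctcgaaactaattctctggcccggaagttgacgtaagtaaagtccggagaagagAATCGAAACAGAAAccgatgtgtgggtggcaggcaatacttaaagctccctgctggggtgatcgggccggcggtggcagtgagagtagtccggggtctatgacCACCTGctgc
Eif2ak2: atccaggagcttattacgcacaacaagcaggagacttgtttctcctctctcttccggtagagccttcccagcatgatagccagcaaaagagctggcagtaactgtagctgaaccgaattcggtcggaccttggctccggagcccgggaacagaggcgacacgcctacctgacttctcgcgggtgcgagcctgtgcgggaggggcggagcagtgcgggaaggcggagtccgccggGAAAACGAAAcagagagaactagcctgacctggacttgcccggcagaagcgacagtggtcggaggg
Mavs: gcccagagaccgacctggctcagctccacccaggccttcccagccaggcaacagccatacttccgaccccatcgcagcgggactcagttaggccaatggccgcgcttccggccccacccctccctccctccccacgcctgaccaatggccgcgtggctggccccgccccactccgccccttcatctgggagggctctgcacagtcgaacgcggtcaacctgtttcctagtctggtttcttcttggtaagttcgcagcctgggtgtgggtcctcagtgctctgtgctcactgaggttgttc

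In the Ifih1 promoter the capitals from -63 to -50, counted from the start of the gene, are 2 overlapping matches to AANNGAAA that also contain GAAANNGAA. The capitals at 41 to 46 after the start are CACCTG, the E-box read on the other strand. Eif2ak2 held the tandem form and an overlapping core between -16 and -7 and no E-box, and the Mavs window held none of the 4 motifs. The core was present in 5 of the 7 promoters (26.4% of 33469 RefSeq promoters of 300 bases), the tandem form in 2 (9.71%), the E-box in 3, those of Ifih1, Zc3hav1 and Trim25 (18.8%), and CAACAGGTG in 0 (0.203%). Of the genes with a tandem form, Ifih1 had the log2 fold change of 1.09 and Eif2ak2 that of -0.12. Of the genes with an E-box, Zc3hav1 and Trim25 were at -0.05 and 0.05. These matches describe letters in a window, not sites in use.

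The wider pathway is given from lists that hold none of the 10 genes. In the list of RIG-I-like receptor signalling (kinases, ubiquitin ligases, phosphatases and cofactors), 39 of 42 genes were tested, 20 had a positive log2 fold change, the median was 0.000 and 0 were called by limma at an adjusted p of 0.05. Unadjusted, 3 of the 39 were under 0.05, which is not above the 11.1% of all genes: Chuk, which encodes a kinase of the NF-κB pathway (-0.25, SE 0.0755), Tomm70, a mitochondrial import receptor that binds MAVS (-0.25, SE 0.0988), and Ripk1, a kinase of death receptor signalling (-0.17, SE 0.0663). These 3 were named after their values were seen. The widest change in the list was that of Tbkbp1, which encodes an adaptor of the kinase TBK1, at 0.51 (SE 0.306, adjusted p = 0.578 in limma) from 2.38 ± 1.16 to 3.13 ± 0.843 CPM (SD, n = 5). The most abundant genes of the list, Ddx3x, Ywhae and Pcbp2, had log2 fold changes of -0.07, 0.08 and 0.04.

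Among other nucleic acid sensors, 24 of 37 genes were tested, 10 were positive, the median was -0.044 and 0 were called, with 2 under an unadjusted p of 0.05, a level reached by 11.1% of all genes. Lrrfip1, which encodes a nucleic acid binding protein, went from 6.74 ± 1.09 to 4.59 ± 0.488 CPM (log2 fold change -0.51, SE 0.140, adjusted p = 0.138 in limma). Dhx33, a helicase gene named after its values were seen, had a log2 fold change of -0.37 (SE 0.108, adjusted p = 0.158 in limma). Its groups did not overlap in scaled counts, as for 3.51% of all genes in either direction. Oas2 and Oas3, whose products make the 2′-5′ oligoadenylate that activates RNase L, were under 3 CPM, with log2 fold changes of 0.42 (SE 0.271) and -0.72 (SE 0.356). Of the endosomal receptor genes, named after their values were seen, Tlr7 and Tlr9 had 0 reads in all libraries and Tlr8 at most 1 read. A count of 0 allows up to 3 reads, or 0.172 to 0.252 CPM by library.

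Around PKR, all 13 listed genes of the eIF2 branch were tested, and 6 were positive with a median of -0.001, a range of -0.16 to 0.17 and 0 called or under an unadjusted p of 0.05. Atf4, the transcription factor gene of that branch, was at 458 ± 43.5 CPM in siCtrl and 435 ± 17.0 in siScrt1 (SD, n = 5). Chac1 and Ddit3, targets of the branch, had log2 fold changes of 0.17 (SE 0.108) and -0.13 (SE 0.254). Among the cofactors and relatives of ZAP, all 12 were tested, with a median of 0.086, and 9 were positive, beside 51% of all genes. Unadjusted, 3 of the 12 were under a limma p of 0.05, all raised, where 11.1% of all genes were under it. They were Khnyn, Parp14 and Parp10 (0.20, SE 0.0825), the last named after its values were seen. After adjustment 1 was called, where 1.05% of all genes were. That gene was Khnyn, which encodes the endonuclease that works with ZAP on CpG-rich RNA. It rose from 10.2 ± 1.28 to 14.3 ± 1.75 CPM (SD, n = 5), with a log2 fold change of 0.52 (SE 0.109, adjusted p = 0.0417 in limma) and no overlap of the groups in scaled counts, as for 1.48% of all genes. The call was near the threshold and was lost in 12 of 20 alternative settings, among them leaving out any library other than siCtrl replicate 1, with adjusted p-values from 0.0150 to 0.138. Parp14, an ADP-ribosyltransferase gene of both this and the interferon response list, was at 0.35 (SE 0.0989, adjusted p = 0.151 in limma). It passed with the library number as a block (adjusted p = 0.0280 in limma). Tiparp, also among the 3 most changed of the list, went the other way, at -0.35 (SE 0.171, adjusted p = 0.486 in limma).

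Interferon genes themselves, named after their values were seen, were not detected at this depth. Ifnb1, Ifnk, Ifng and Ifnl3 had 0 reads in all 10 libraries. Of the interferon receptor and signal transduction list, 14 of 21 genes were tested, 7 were positive, the median was 0.004 and 0 were called. Jak1 was at 74.9 ± 9.33 CPM in siCtrl and 74.9 ± 6.52 in siScrt1, and Ifngr2, a subunit of the interferon gamma receptor, had a log2 fold change of 0.22 (SE 0.0960, adjusted p = 0.419 in limma).

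The interferon response list, made of genes that interferon is known to induce, had 47 of 63 genes tested, of which 32 were positive (51.0% of all genes tested were), with a median of 0.101 beside 0.00 over all genes, and 0 were called. With the library number as a block 2 were called, Parp14 and Cxcl10, in a fit that called 2.00% of all genes. Unadjusted, 3 of the 47 were under 0.05, not above the 11.1% of all genes: Parp14, Trim21 and Irf1, the last 2 named after their values were seen. Irf1, an interferon regulatory factor gene, went from 23.2 ± 1.66 to 27.2 ± 1.09 CPM (log2 fold change 0.27, SE 0.0674, adjusted p = 0.0966 in limma). Its groups did not overlap in scaled counts, as for 1.48% of all genes with siScrt1 higher. Cxcl10, a chemokine gene, was at 10.5 ± 2.83 CPM in siCtrl and 13.8 ± 3.93 in siScrt1 (log2 fold change 0.42, SE 0.208, adjusted p = 0.484 in limma), and with the library number as a block its adjusted p was 0.0351. The classical interferon-induced genes Ifit1 (0 to 1 read per library), Ifit3 (1 to 10), Mx1 (3 to 12) and Oas1a (0 to 6) were below the filter in these cells. Others were measured, with log2 fold changes of -0.07 for Rsad2 (SE 0.400), 0.12 for Mx2 (SE 0.110), -0.07 for Isg15 (SE 0.174), -0.08 for Ifi44 (SE 0.165), 0.17 for Oasl2 (SE 0.187) and 0.12 for Usp18 (SE 0.251), none of which passed. These 10 genes were named outside the rule, after their values were seen. Bst2 had the highest log2 fold change of the tested genes of this list, 0.60 (SE 0.387, adjusted p = 0.609 in limma). It was at 0.838 ± 0.463 CPM in siCtrl and 1.19 ± 0.382 in siScrt1. The lowest log2 fold change was that of Oas3, also on this list, at -0.72 (SE 0.356, adjusted p = 0.486 in limma). Of the NF-κB targets of inflammation, 7 of 15 genes were tested, 6 were positive, the median was 0.068 and 0 were called. Unadjusted, 2 of the 7 were under a limma p of 0.05 and are named for that, where 11.1% of all genes were under it. Tnfaip3 had a log2 fold change of 0.24 (SE 0.104, adjusted p = 0.415 in limma). Icam1 was at -0.83 (SE 0.374, adjusted p = 0.435 in limma). Its level was low, at 3.23 ± 1.77 CPM in siCtrl and 1.66 ± 0.626 in siScrt1, with as few as 15 reads in a library.

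Over the 10 libraries, the genes whose log2 values were most like those of Ifih1 by Pearson correlation were Parp16 (r = 0.947), Osbpl5 (0.945), Cd1d1 (0.929), Card6 (0.925) and Mov10 (0.917). These values are descriptive, since the points fall into the same groups of 5 libraries, in which these genes were higher on average in siScrt1, and Scrt1 itself stood at -0.954. Among the 9 other members, Mavs (r = 0.899) ranked 11 of all genes tested, and the remaining 8 lay between -0.477 (Tlr3) and 0.165 (Adar). After the mean of each group was subtracted, the most alike were Donson (0.978), Yars2 (0.958), Tgif2 (0.935), Nek1 (0.932) and Atad2b (0.931). On that scale Eif2ak2 ranked 20 of all genes tested (r = 0.884). In siCtrl, replicate 2 had the highest scaled count of both Ifih1 (143) and Eif2ak2 (686), and its part in this r was not tested. By the same measure Mavs stood at 0.527, Ddx58 at -0.165 and Scrt1 at -0.763.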

How the data were processed

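The submitters' notes list FastQC, Trimmomatic, kallisto and sleuth, and the study's methods name kallisto (pseudoalignment of single-end reads to Rnor6 transcripts) and sleuth for the RNA-seq; the versions used for the RNA-seq are not given in the sources used here. The deposited values are signal scaled between libraries by the authors: estimated counts and TPM per transcript. One read was worth 0.842 to 1.26 scaled counts; division by this step gave the recovered reads behind CPM, and since 48.4% of values above 0 came out whole (tolerance 0.001 reads), no count model was used. Transcripts were summed per gene, kept at 10 reads (scaled to the median library) in 5 or more libraries, and tested as log2(scaled count + 0.5) with limma 3.58.1 (R 4.3.3, intensity trend, group as the only term, Benjamini-Hochberg over all genes). Transcripts needed 5 reads in 47% of libraries. Shares were tested by exact permutation in scipy 1.17.1. The replicates of a group differed beyond sampling noise.

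The deposited table numbers the libraries 1 to 5 in both groups, which the labels do not. Deviations of same-numbered libraries from their group means correlated at 0.131 to 0.351 over 12941 genes, against -0.179 to 0.167 for other numbers, so the numbers were taken as pairs and a fit with the number as a block was run beside the one without. Genes were named by rule. The rule took the members, Scrt1 and the insulin genes, called list genes and the genes most like Ifih1. From each pathway list it took the 3 most abundant and 3 most changed genes. Not every list gene so chosen is described, and genes named outside the rule are marked. Members and lists were chosen with earlier results of these data known. Alternatives were other pseudocounts, scalings and filters, limma-voom on recovered reads, the block, and leaving out each library; leaving out both libraries numbered 1 was added after seeing the data. RefSeq promoters matched by symbol. No coordinates were converted. No column of unknown samples was present.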

Additional observations from a re-analysis of the deposited data

Results flagged for a closer look

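Of 22 groups of 5 libraries examined (the 10 genes and Scrt1 in each group), 1 held a library that stood apart: Eif2ak2 in siCtrl replicate 2, at a scaled count of 686, where the other siCtrl libraries lay between 553 and 586 (gap of 0.748 of the range, above Dixon's 95% limit). About 1 in 20 groups is expected to pass by chance. Without that library the log2 fold change of Eif2ak2 was -0.069 in place of -0.12. The same library also had the highest siCtrl values of Ifih1 (143) and Tlr3 (464).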

How the results depend on the processing

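The number of genes called was 136 and 259 with the replicate block; leaving out 1 library gave 62 to 133, with the moves above 1.5 times being those without siCtrl replicates 4 (82) and 5 (77) and siScrt1 replicates B (83), C (87), D (62) and E (64). The log2 fold change of Ifih1, a description, ran from 0.79 to 1.19 over 20 alternatives. None of the other 9 members gained a call in them, with adjusted p-values of 0.0796 (Mavs with the block) to 0.285 for Mavs and 0.199 to 0.730 for Tlr3. Of the transcripts of members, 1 was called, 0 with the replicate block and 0 to 1 when 1 library was left out (0 without siCtrl replicates 4 or 5 or siScrt1 replicates C, D or E). Besides the calls of Parp14 and Cxcl10 and the Ifih1 transcript, no other call among the results named moved with the block. The direction of Ddx58, Irf3, Trim25 and Adar turned. Ddx58 ran from -0.11 to 0.073 and Irf3 from -0.12 to 0.11 over libraries left out, Trim25 from -0.015 to 0.099 and Adar from -0.00076 to 0.040. Upper-quartile scaling put Irf3 at 0.0082, and without both libraries numbered 1 Ddx58 was at -0.065 and Irf3 at 0.0019. Scrt1 stayed called, at -2.26 to -1.80 over libraries left out. The median of the interferon response list ran from 0.063 to 0.109 over libraries left out. Depth limits the statements on genes of a few reads.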
